A study of Mus musculus with 2 samples.

Results

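The 9 genes described here are Trp53, which encodes the tumour suppressor p53, and 8 genes of its circuit: Cdkn1a, Cdkn2a, Mdm2, Ccng1, Bax, Phlda3, Sesn2 and Zmat3. They were chosen by name from the 17790 genes of the deposited table, and all 9 had transcripts in both libraries. The question is at what level each gene stood in the alveolar epithelium, where lung adenocarcinoma arises, compared with the endothelial and stromal cells of the same tumours. Tumours were dissected from lungs of C57BL/6 mice, dissociated and parted with magnetic beads into a CD45-negative and a CD45-positive fraction, CD45 being the surface phosphatase of leukocytes. Each fraction is 1 droplet library of 3′ transcript ends, counted as unique molecular identifiers (UMI, each standing for a captured transcript). The CD45-negative library holds 3957 cells with 40873786 UMI and the CD45-positive library 11432 cells, where the design text gives 6000 cells loaded per channel and no number of channels. The labels give no genotype, tumour model, animal number or sex, and cell names carry the tag LucOS without an explanation. The authors' annotation puts every cell in 1 of 7 classes, none of them named for tumour cells.

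p53 is a transcription factor that is held at low protein levels by the ubiquitin ligase Mdm2 and is stabilised by DNA damage or oncogene activity. It then raises the transcripts of genes that stop the cell cycle, repair damage or start apoptosis, and also that of Mdm2, its own inhibitor. In lung adenocarcinoma its loss accompanies progression, and the product p19Arf of the Cdkn2a locus, which restrains Mdm2, links oncogenes to p53. Since p53 is regulated largely as a protein, the level of Trp53 transcript is not a measure of its activity. In mouse models where Cre recombinase deletes a floxed Trp53 allele, the last exon with the 3′ end lies outside the deleted stretch, so a 3′ count of Trp53 would not check such a deletion, and none is stated here.

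The starts of transcription of the genes on which the results turn are shown with 250 bases before and 50 bases after each start, from the RefSeq promoter table of GRCm38.p6, 5′ to 3′ on the gene's strand. They are the upstream of the 2 Cdkn1a windows in the table and that of Phlda3, genes whose levels were similar in pattern across classes, and both starts of Cdkn2a, which give the unrelated proteins p19Arf and p16Ink4a. Capitals mark the letters CATG, any 6 bases, CATG, the core of a p53 response element with adjoining half-sites, searched on both strands (the motif is its own reverse complement).
Cdkn1a, chr17:29090729-29091028, plus strand: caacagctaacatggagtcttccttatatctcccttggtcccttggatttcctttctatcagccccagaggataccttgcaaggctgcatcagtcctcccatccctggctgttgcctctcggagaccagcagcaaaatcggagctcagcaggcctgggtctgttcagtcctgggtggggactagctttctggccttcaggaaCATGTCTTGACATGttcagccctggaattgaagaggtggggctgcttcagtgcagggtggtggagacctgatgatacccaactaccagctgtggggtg
Phlda3, chr1:135765835-135766134, plus strand: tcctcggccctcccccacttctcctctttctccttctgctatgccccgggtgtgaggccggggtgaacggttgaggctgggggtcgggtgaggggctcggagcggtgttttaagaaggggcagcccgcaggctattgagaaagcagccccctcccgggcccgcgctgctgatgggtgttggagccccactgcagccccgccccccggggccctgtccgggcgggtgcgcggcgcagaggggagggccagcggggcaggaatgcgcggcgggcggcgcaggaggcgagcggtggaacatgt
Cdkn2a, upstream start, chr4:89294570-89294869, minus strand: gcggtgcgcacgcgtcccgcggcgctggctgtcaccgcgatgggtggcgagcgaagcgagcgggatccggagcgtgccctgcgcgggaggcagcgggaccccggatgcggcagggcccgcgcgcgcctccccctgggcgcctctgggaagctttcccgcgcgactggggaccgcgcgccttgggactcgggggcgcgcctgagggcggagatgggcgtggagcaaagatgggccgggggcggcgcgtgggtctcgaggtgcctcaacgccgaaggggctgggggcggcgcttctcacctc
Cdkn2a, downstream start, chr4:89282143-89282442, minus strand: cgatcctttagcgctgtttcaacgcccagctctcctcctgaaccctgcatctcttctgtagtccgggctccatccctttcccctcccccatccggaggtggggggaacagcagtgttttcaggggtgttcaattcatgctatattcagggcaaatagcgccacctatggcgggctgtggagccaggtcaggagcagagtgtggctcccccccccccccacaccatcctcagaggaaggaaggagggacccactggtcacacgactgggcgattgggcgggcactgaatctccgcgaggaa
Among the windows of the 9 genes the pair was found only in the one shown for Cdkn1a, from 48 to 35 bases before the start. It occurred in 1 of the 10 windows available for 8 of the 9 genes, in 0 of 41 windows of other p53 target genes, and in 234 of all 32851 promoters (0.712%). The second Cdkn1a window, at chr17:29093519-29093818, did not hold it, and the stricter full p53 site was found in 0 of the 10 windows and in 3 of all promoters. A match is a description of the letters, and a window without one may be bound elsewhere.

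On GRCm38 the genes lie at chr11:69580359-69591873 on the plus strand (Trp53, ENSMUSG00000059552), chr17:29090976-29100727 plus (Cdkn1a, ENSMUSG00000023067), chr4:89274471-89294653 minus (Cdkn2a, ENSMUSG00000044303) and chr10:117688875-117710758 minus (Mdm2, ENSMUSG00000020184). Ccng1 (ENSMUSG00000020326) lies at chr11:40748552-40755311 minus, Bax (ENSMUSG00000003873) at chr7:45461697-45466898 minus and Phlda3 (ENSMUSG00000041801) at chr1:135766119-135769136 plus. Sesn2 (ENSMUSG00000028893) lies at chr4:132492032-132510501 minus and Zmat3 (ENSMUSG00000027663) at chr3:32334792-32366014 minus. All 9 are protein-coding genes. Cdkn2a is a single row of counts over both of its coding transcripts, so p16Ink4a and p19Arf could not be told apart. Bax overlaps Gm45808 and Sesn2 overlaps Gm12981 on the same strand, and Trp53 has a processed pseudogene, Trp53-ps, on chromosome 17, so their counts are less certain.

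Before any comparison, the deposited class names were checked against marker genes. In the CD45-negative library, the 1677 cells deposited as AT2 (alveolar type 2, the surfactant-making cells) held Sftpc, a surfactant protein gene, at 121713 CPM (summed UMI of the class, scaled to a total of 1000000), and the 1249 cells deposited as Endothelial held Cldn5, a tight-junction gene of vessels, at 4062 CPM. In later clustering, 218 of the AT2 cells fell in an AT1-like sub-cluster and 170 in an endothelial-like one. Of the Endothelial cells, 357 fell in sub-clusters led by genes of another cell type, among them 107 fibroblast-like cells. Both classes keep their deposited names, and their levels include these cells unless stated. The 285 cells deposited as AT1 (alveolar type 1, the flat gas-exchange cells) did not carry the defining AT1 genes above the AT2 class: Ager stood at 302 against 1614 CPM, Hopx at 7.09 against 29.96, and Rtkn2 and Igfbp2 at 0.187 CPM each. Of the 10 AT1 markers together, 1521 CPM were counted in the class deposited as AT1 and 3280 CPM in AT2, while 10 genes of AT2 cells in transition or in tumour progression summed to 5953 and 1411 CPM. When AT2 and AT1 cells were clustered together, 272 of the 285 fell in 1 sub-cluster led by Procr, Tnfrsf23, Tslp, Ndrg1 and Cldn4, and this population is called the Procr/Cldn4-led class (deposited as AT1) below. The 356 cells deposited as Fibroblast carried Msln, Upk3b and Wt1, genes of the mesothelium that lines the lung, at 3633, 2190 and 194 CPM, with 7 mesothelial markers summing to 9931 CPM. The 9 fibroblast markers summed to 4612 CPM, more than in any other class, of which the matrix gene Dcn made up 3808 CPM, while the receptor Pdgfra stood at 0.584 CPM. They are called the mesothelial-like class (deposited as Fibroblast), a name that does not exclude fibroblasts among them. The 108 cells deposited as Ciliated held 5 markers of club cells, the secretory cells of the airway, at 232870 CPM, of which Scgb1a1 made up 225427 CPM, and 6 markers of ciliated cells at 7474 CPM, against 517 and 139 CPM in AT2. They are called the airway class (deposited as Ciliated), since both kinds of marker were high.

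The libraries differed in depth and purity, which touches the comparisons. Median UMI per cell in the CD45-negative library were 8143 in AT2, 14541 in the Procr/Cldn4-led class, 6808 in Endothelial and 8025.5 in the mesothelial-like class, and the same classes had 3591 to 8840 in the CD45-positive library. Genes of leukocytes (7 markers, all detected) summed to 94.8 CPM in AT2 and 85.4 CPM in Endothelial cells of the CD45-negative library but to 1439 and 2224 CPM in those of the CD45-positive library. The 1324 cells deposited as AT2 in the CD45-positive library were mixed. When clustered, 286 of them lay in a sub-cluster led by macrophage genes such as Chil3 and C1qa. A further 57, 98 and 78 lay in sub-clusters led by genes of B cells, T cells and neutrophils, and 79 in an endothelial-like one. All of these cells are part of the AT2 levels given for that library. The libraries share 57 barcodes. Both contain cells with Xist, the transcript of the inactive X chromosome, and cells with Y-linked transcripts, so each holds cells of animals of both sexes. With 1 library per fraction there is no replicate and no test. Intervals in parentheses are 95% intervals (exact Poisson for levels, exact conditional-binomial for ratios, exact Clopper-Pearson for shares), and like floors for a count of 0 they cover counting error only. Levels are set side by side within a gene and not between genes, because the share of transcripts caught at the 3′ end differs by gene.

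**Figure D1:**
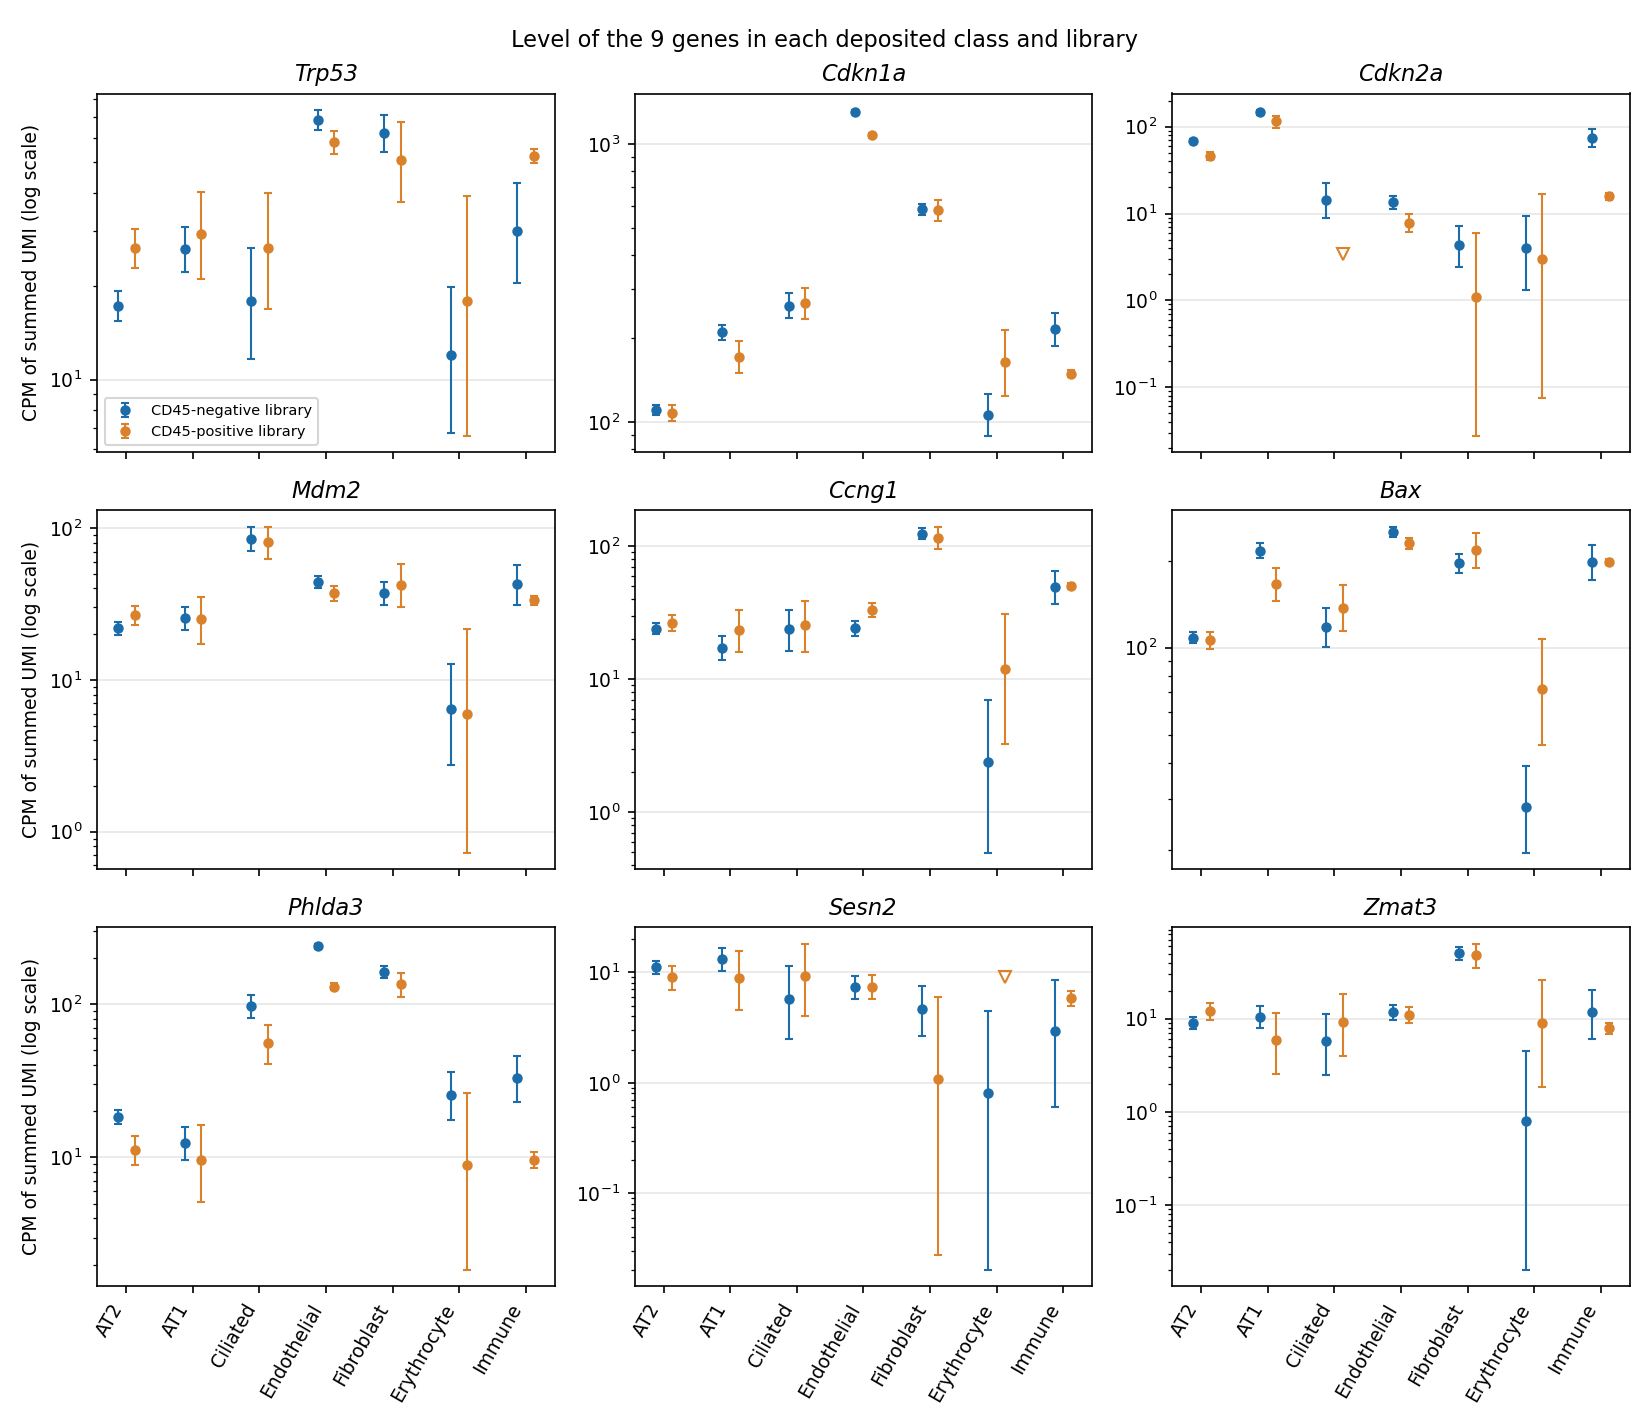
CPM of summed UMI (log scale) of each of the 9 genes by deposited class in the CD45-negative (blue) and CD45-positive (orange) library, 1 library each. Points are levels, bars 95% Poisson intervals, and open triangles a floor of 3 counts where no UMI was found. Cdkn1a and Phlda3 were highest in Endothelial cells of the CD45-negative library (1303 and 238 CPM), Cdkn2a in the class deposited as AT1 (146 CPM), and Ccng1 and Zmat3 in that deposited as Fibroblast (124 and 50.2 CPM).

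In the CD45-negative library, AT2 cells and the Procr/Cldn4-led class both had less Trp53, Cdkn1a and Phlda3 transcript than the Endothelial class, and more Cdkn2a. Over all 9 genes the Procr/Cldn4-led class had a median log2 ratio to Endothelial of -0.50, near the -0.45 over all genes. In AT2 against Endothelial cells of the CD45-negative library, 5 of the 9 (Trp53, Cdkn1a, Phlda3, Bax and Mdm2) were at least 2-fold lower and 1 (Cdkn2a) at least 2-fold higher. Of all 11804 genes with at least 50 UMI in this pair, 33.6% were lower and 13.1% higher by that measure. The median log2 ratio was -1.01 over the 9 genes and -0.61 over all genes. The 50 most abundant genes of the library held 36.8% of the UMI in AT2 and 15.9% in Endothelial cells, and their part in the shift was not tested. Relative to that shift, Cdkn1a, Phlda3 and Trp53 were still more than 2-fold lower, with log2 ratios of -2.94, -3.08 and -1.37, and Cdkn2a and Sesn2 more than 2-fold higher, at 2.96 and 1.22. Bax and Mdm2 were then 0.60 and 0.40 lower on the log2 scale, which was not 2-fold, while Zmat3 (log2 ratio -0.37) turned to 0.25 and Ccng1 (-0.01) to 0.60.

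Among the alveolar, Endothelial and mesothelial-like classes of the CD45-negative library, Trp53 transcript was lowest in AT2 cells. It stood at 17.3 CPM (15.5 to 19.3) in AT2, 26.3 CPM (22.1 to 31.0) in the Procr/Cldn4-led class, 68.5 CPM (63.4 to 73.8) in Endothelial and 62.2 CPM (54.1 to 71.1) in mesothelial-like cells of the CD45-negative library. The remaining classes there had 30.1 CPM (Immune), 18.0 CPM (airway class) and 12.02 CPM (Erythrocyte). The airway class did not differ from AT2 beyond the interval (ratio 1.04, 0.662 to 1.56). In the CD45-positive library the levels were 26.5 CPM (22.9 to 30.4) in AT2, 29.5 CPM (21.1 to 40.1) in the Procr/Cldn4-led class, 58.0 CPM (53.2 to 63.2) in Endothelial, 50.9 CPM in mesothelial-like and 52.3 CPM (49.6 to 55.1) in Immune cells. The airway class there had 26.5 CPM (16.8 to 39.8) and Erythrocyte cells 18.0 CPM (6.59 to 39.1), so the epithelial classes were not told apart in that library. Endothelial and mesothelial-like cells did not differ beyond their intervals, and these stood above the epithelial classes in both libraries. The AT2/Endothelial ratio in the CD45-negative library was 0.253 (0.220 to 0.289), and that in the CD45-positive library 0.456 (0.385 to 0.538). Leukocyte genes rose alongside in the CD45-positive AT2 class (1439 against 94.8 CPM), and immune cells there held Trp53 at 52.3 CPM, whose part in the higher ratio was not tested. A Trp53 UMI was found in 15.3% of AT2 and 39.6% of Endothelial cells, and after thinning each cell to 1000 UMI in 1.55% and 6.89%.

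Mdm2, the ligase that degrades p53, did not follow Trp53 across the classes. Its highest level was in the airway class (deposited as Ciliated), at 84.8 CPM (70.2 to 102), and again in the CD45-positive library at 80.8 CPM (63.0 to 102), where Trp53 was near the AT2 level. In the CD45-negative library AT2 had 21.8 CPM (19.7 to 24.1), the Procr/Cldn4-led class 25.4 CPM, Endothelial 44.0 CPM (40.0 to 48.4) and mesothelial-like cells 37.1 CPM. The CD45-positive values were 26.6, 25.1, 37.1 and 42.2 CPM, with Immune cells at 33.5 CPM. The airway class exceeded Endothelial, the next class, by a ratio of 1.93 (1.56 to 2.37) in the CD45-negative library. The AT2/Endothelial ratio was 0.496 (0.432 to 0.569) in the CD45-negative and 0.717 (0.598 to 0.857) in the CD45-positive library, so that the former lay at the 2-fold line and the latter did not reach it.

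Cdkn2a, whose products p16Ink4a and p19Arf inhibit cyclin D kinases and Mdm2, was the one gene of the 9 that was higher in epithelium than in both comparators by at least 2-fold in all 4 pairs, while Sesn2 was so in 2. In the CD45-negative library it stood at 146 CPM (136 to 156) in the Procr/Cldn4-led class and 68.6 CPM (64.9 to 72.5) in AT2. Endothelial cells had 13.5 CPM (11.3 to 16.0) and mesothelial-like cells 4.38 CPM (2.45 to 7.22, from 15 UMI). The CD45-positive library gave the same order, with 115 CPM (97.6 to 134), 46.1 CPM (41.3 to 51.2), 7.86 CPM (6.14 to 9.92) and 1.08 CPM (1 UMI) in those classes. The ratios in the CD45-negative library were 5.08 (4.25 to 6.13) for AT2/Endothelial, 15.7 (9.46 to 28.1) for AT2 over mesothelial-like cells, 10.8 (8.99 to 13.1) for the Procr/Cldn4-led class over Endothelial and 33.3 (20.1 to 59.8) over mesothelial-like cells. A Cdkn2a UMI was found in 62.1% (56.2 to 67.8%) of the Procr/Cldn4-led cells, 27.3% (25.2 to 29.5%) of AT2 cells and 3.37% (1.75 to 5.81%) of mesothelial-like cells, whose median depths are given above. When 1000 UMI were drawn from each cell, these shares were 15.4%, 4.71% and 0.281% and kept their order. Single cells held up to 39 Cdkn2a UMI in the Procr/Cldn4-led class and up to 4 in mesothelial-like cells. The airway class of the CD45-negative library had 14.4 CPM (8.78 to 22.2), from 20 UMI with up to 14 in a cell. In the airway class of the CD45-positive library no UMI was found in 116 cells, where a floor of 3 counts is 3.46 CPM and the upper bound of the Poisson interval 4.26 CPM.

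Cdkn1a encodes p21, the inhibitor of cyclin-dependent kinases that carries out p53-dependent arrest, and its level differed widely between cell types. Endothelial cells had 1303 CPM (1281 to 1326), mesothelial-like cells 582 CPM (556 to 608), the Procr/Cldn4-led class 210 CPM (198 to 223) and AT2 cells 111 CPM (106 to 116). In the CD45-positive library the levels were 1073 CPM (1052 to 1095), 578 CPM, 172 CPM and 108 CPM (101 to 116). These 4 classes held the same order in both libraries, and their intervals did not overlap. The airway class (262 and 268 CPM) and Immune cells (216 and 150 CPM) lay between the mesothelial-like class and AT2 in both libraries, and Erythrocyte cells (107 CPM) did not differ from AT2 beyond their interval in the CD45-negative one. AT2 cells had 0.0850 (0.0811 to 0.0890) of the Endothelial level and the Procr/Cldn4-led class 0.161 (0.152 to 0.171). Within the epithelium the Procr/Cldn4-led class exceeded AT2 by a ratio of 1.90 (1.76 to 2.04). When sub-clusters led by genes of another cell type were left out (187 AT2 and 357 Endothelial cells, chosen after the data were seen), the AT2/Endothelial log2 ratio was -4.26 in place of -3.56, and that of Phlda3 was -4.29 in place of -3.69. A total of 68.5% of all Cdkn1a UMI of the CD45-negative library came from Endothelial cells.

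Phlda3, an inhibitor of AKT signalling induced by p53, resembled Cdkn1a in its order of classes. It stood at 238 CPM (229 to 248) in Endothelial, 162 CPM (149 to 176) in mesothelial-like and 97.0 CPM (81.3 to 115) in airway cells, against 18.4 CPM (16.5 to 20.5) in AT2 and 12.5 CPM (9.69 to 15.9) in the Procr/Cldn4-led class. The CD45-positive library gave 130, 134, 55.4, 11.2 and 9.58 CPM in the same classes. The AT2/Endothelial ratios were 0.0773 (0.0688 to 0.0866) and 0.0857 (0.0677 to 0.107). Unlike Cdkn1a, Phlda3 was not higher in the Procr/Cldn4-led class than in AT2. Over the 14 combinations of class and library, the log2 levels of Cdkn1a and Phlda3 had a Pearson r of 0.89, and those of Cdkn2a and Phlda3 of -0.52. These are descriptions of 14 points that share 2 libraries and their depth.

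Bax, the pore-forming effector of apoptosis, varied less. AT2 cells had 108 CPM (104 to 113) and the Procr/Cldn4-led class 216 CPM (204 to 229), against 252 CPM (242 to 262) in Endothelial, 196 CPM (181 to 211) in mesothelial-like and 197 CPM in Immune cells. In the CD45-positive library AT2 had 106 CPM and the Procr/Cldn4-led class 166 CPM, against 229 and 218 CPM in Endothelial and mesothelial-like cells. AT2 was the lower in both, with AT2/Endothelial ratios of 0.431 (0.406 to 0.457) and 0.462 (0.425 to 0.502).

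Ccng1, which encodes cyclin G1 and takes part in p53 feedback, and Zmat3, an RNA-binding zinc-finger gene, shared another pattern: both were highest in the mesothelial-like class. Ccng1 stood there at 124 CPM (113 to 136), with 24.0 CPM in AT2, 24.2 CPM in Endothelial and 17.2 CPM in the Procr/Cldn4-led class, and at 116 CPM (94.9 to 140) against 26.5, 33.2 and 23.6 CPM in the CD45-positive library. Zmat3 stood at 50.2 CPM (43.0 to 58.3), with 9.05 CPM in AT2, 11.7 CPM in Endothelial and 10.4 CPM in the Procr/Cldn4-led class, and at 47.6 CPM (34.6 to 63.9) against 11.96, 10.96 and 5.90 CPM. The AT2 and Endothelial levels of Ccng1 did not differ beyond their interval in the CD45-negative library (ratio 0.991, 0.845 to 1.16). AT2 over mesothelial-like ratios were 0.194 (0.169 to 0.222) for Ccng1 and 0.180 (0.145 to 0.224) for Zmat3. The correlation of these genes over the 14 combinations was 0.89.

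Sesn2, a stress-induced sestrin that restrains the growth kinase mTORC1, had the fewest UMI of the 9 genes in both libraries. It had 13.1 CPM (10.2 to 16.5) in the Procr/Cldn4-led class, 11.1 CPM (9.64 to 12.7) in AT2, 7.30 CPM (5.71 to 9.20) in Endothelial and 4.67 CPM (2.67 to 7.58, 16 UMI) in mesothelial-like cells. The CD45-positive library had 8.84, 9.002, 7.42 and 1.08 CPM (1 UMI). The epithelium was at least 2-fold above the mesothelial-like class (ratios 2.38, 1.43 to 4.24, and 2.80, 1.61 to 5.16) but not above Endothelial (1.52, 1.16 to 2.02, and 1.79, 1.27 to 2.52).

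In the remaining pairs of the CD45-negative library, Cdkn2a and Sesn2 were at least 2-fold higher and Trp53, Cdkn1a, Ccng1, Phlda3 and Zmat3 at least 2-fold lower in AT2 than in mesothelial-like cells, against 12.3% and 22.2% of 11221 genes. The same 2 and 5 genes were called for the Procr/Cldn4-led class over mesothelial-like cells, against 13.3% and 22.9% of 9592 genes. For that class over Endothelial, Cdkn2a was higher and Trp53, Cdkn1a and Phlda3 lower, against 12% and 30.4% of 10854 genes. These pairs share their classes and are not independent. In the CD45-positive library, AT2/Endothelial gave 1 higher and 4 lower (9.58% and 23% of 11182 genes), and AT2 over mesothelial-like cells 2 higher and 5 lower (10.6% and 15.3% of 9264 genes). For the Procr/Cldn4-led class there, 1 gene was higher and 2 lower than in Endothelial (7.88% and 28.7% of 10184 genes), and 1 higher and 4 lower than in mesothelial-like cells among the 8 with at least 50 UMI (10.8% and 19.3% of 5198 genes).

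**Figure D2:**
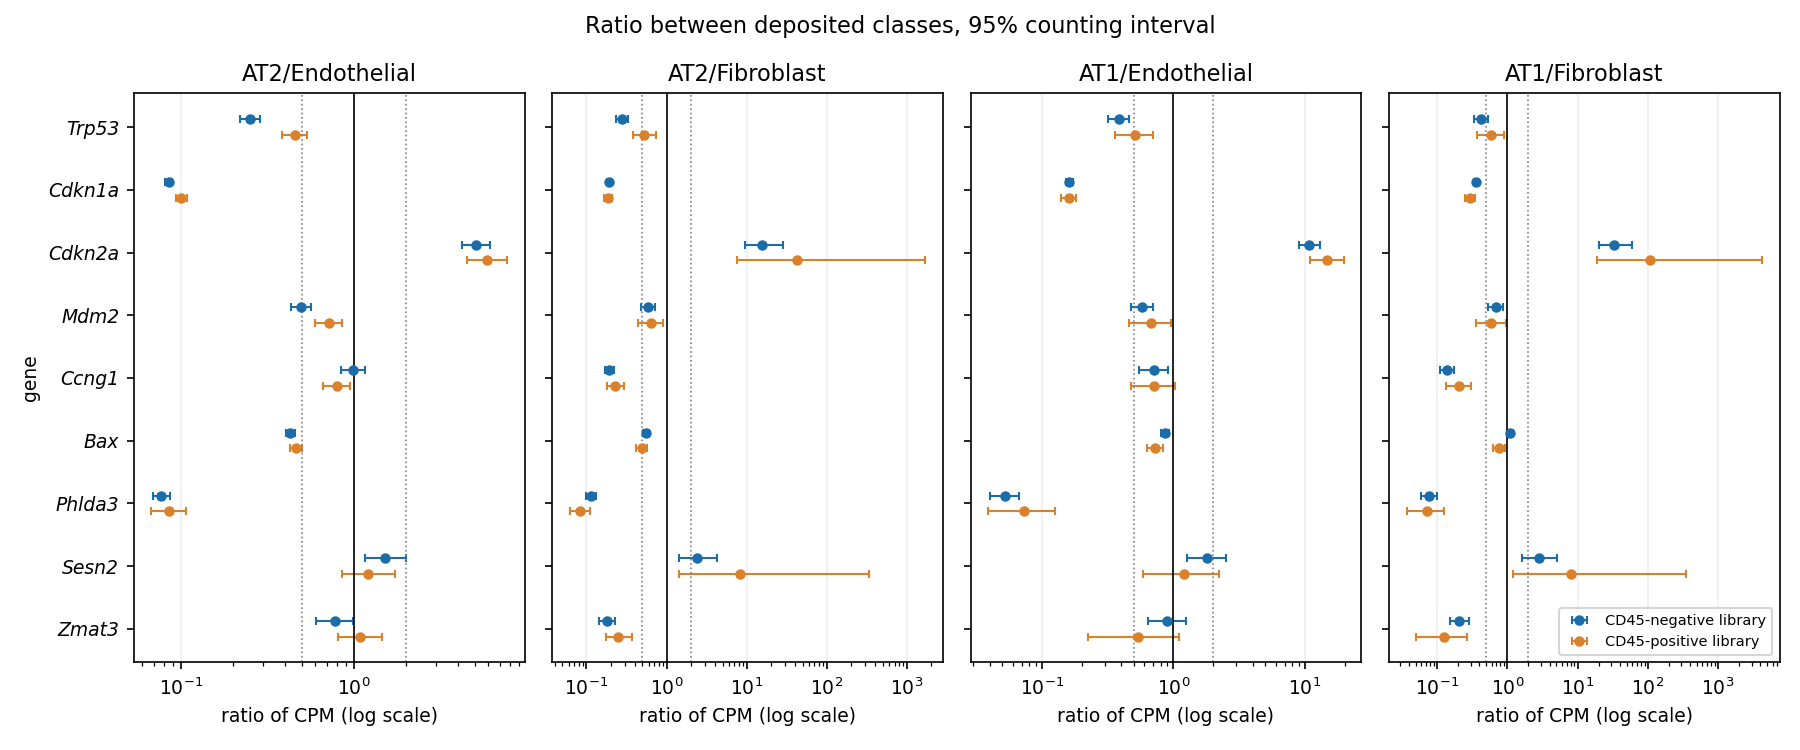
Ratio of CPM (log scale) between deposited classes for the 9 genes in the CD45-negative (blue) and CD45-positive (orange) library, with 95% counting intervals. Dotted lines mark 0.5 and 2. Cdkn2a lay above 2 in each of the 4 pairs and both libraries, and Phlda3 (0.0773 for AT2/Endothelial) and Cdkn1a (0.0850) below 0.5.

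In AT2/Endothelial, other p53 target genes included both high and low ones, in numbers near the background. Of 37 listed targets besides the 9, 33 had at least 50 UMI in AT2/Endothelial: 11 were at least 2-fold lower in AT2, 4 at least 2-fold higher and 18 between. These counts lie near the shares over all genes (33.6% lower and 13.1% higher), with a median log2 ratio of -0.55 against -0.61 over all genes. The lowest were Pltp, a phospholipid transfer protein (62.9 against 1074 CPM, ratio 0.0586, 0.0551 to 0.0622), and Fas, the death receptor (25.7 against 285 CPM, ratio 0.0900, 0.0815 to 0.0993). Also lower were Pmaip1 (Noxa; 0.245), Apaf1 (0.282), Ercc5 (0.309), Rrm2b (0.355) and Bbc3 (Puma; 0.436). They were named after their values were seen, and targets were not compared by function. Higher were Perp, a desmosomal protein of epithelia (27.2 against 2.64 CPM, ratio 10.3, 6.94 to 15.9), Dcxr, a xylulose reductase (238 against 26.5 CPM, ratio 8.99, 7.93 to 10.2), Sfn (14-3-3 sigma; ratio 8.52) and Ak1 (ratio 6.09). Perp and Sfn are also known as epithelial genes. In the mesothelial-like comparison 6 of 35 were higher in AT2 and 14 lower, beside 12.3% and 22.2% of all genes. Both counts were above those shares, which was not tested, and the median was -0.67 against -0.38. In the Procr/Cldn4-led class 4 of 32 were higher and 7 lower than in Endothelial cells, beside 12% and 30.4% of all genes. Against mesothelial-like cells 8 of 34 were higher in that class and 13 lower, beside 13.3% and 22.9%.

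**Figure D3:**
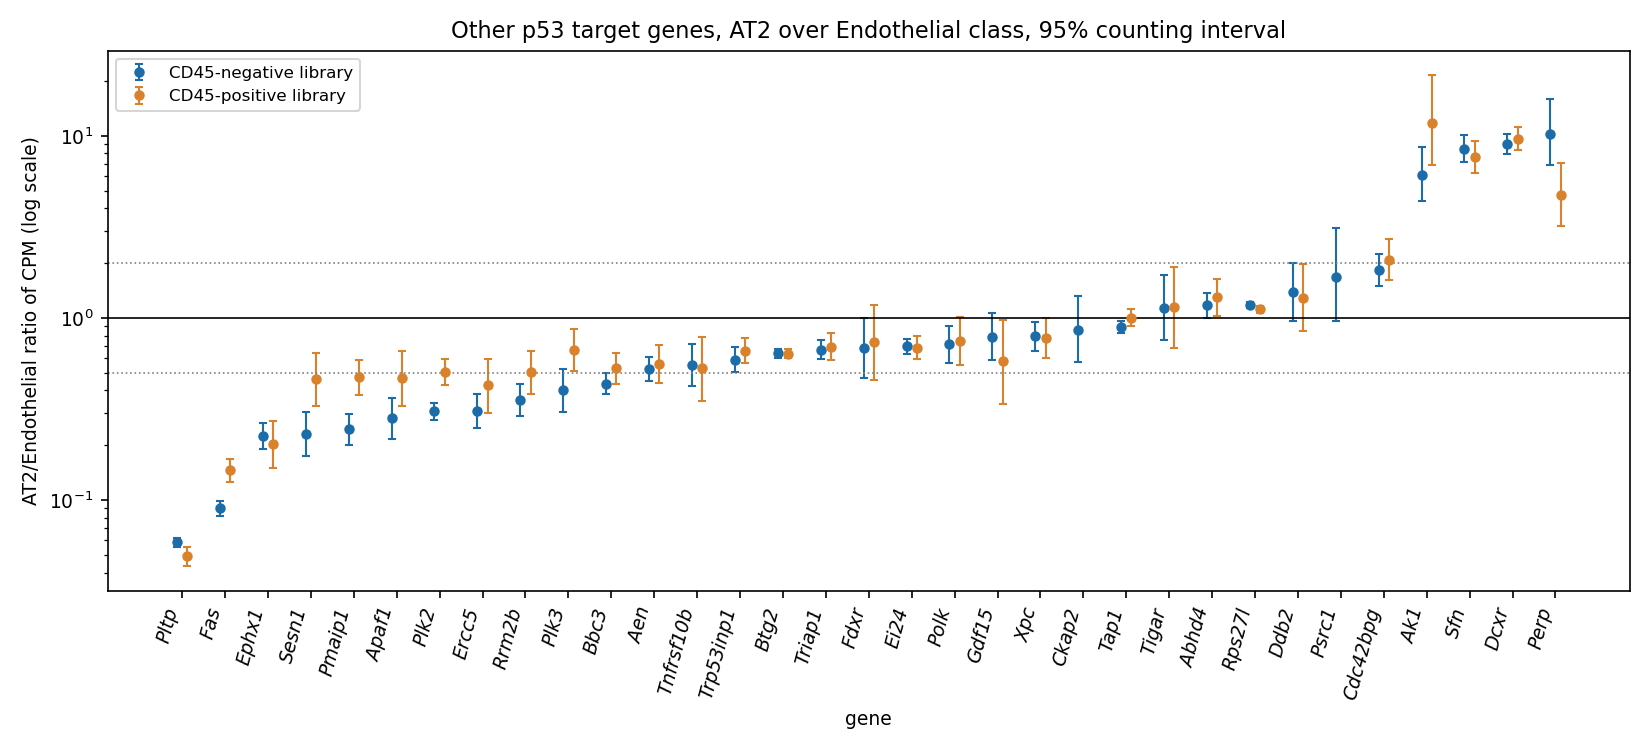
AT2/Endothelial ratio of CPM (log scale) for the 33 further p53 target genes with at least 50 UMI in the CD45-negative library (blue), with the CD45-positive values (orange) where that pair had at least 50 UMI. Bars are 95% counting intervals and dotted lines mark 0.5 and 2. Pltp and Fas lie lowest at 0.0586 and 0.0900, and Perp, Dcxr, Sfn and Ak1 lie above 6.

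Counts in the neighbouring lists are read against the same shares of all genes, 33.6% lower and 13.1% higher in AT2 than in Endothelial cells, and with at most 15 genes a list none is called particular. Of 14 measured p53 regulators, 4 were at least 2-fold lower and 0 higher: the kinase genes Hipk2 (ratio 0.320) and Chek2 (0.462), the phosphatase Ppm1d (0.428) and the acetyltransferase Crebbp (0.487), with a list median of -0.83. Of 15 genes of cyclin-dependent kinase inhibitors and the RB pathway, 6 were lower and 1 higher, with the lowest ratios for Ccnd2 (cyclin D2; 0.103), Cdkn1c (p57; 0.144), Cdk6 (0.144) and Rb1 (0.203). In the BCL2 family 3 of 12 were higher and 3 lower: the anti-apoptotic Bcl2 stood at 7.92 against 46.5 CPM (0.170), while Bcl2a1b (ratio 10.8), Bok (4.04) and Bmf (3.24) were higher in AT2. Of 13 genes of dissociation and stress, Jun (0.178), Dusp1 (0.328) and Ier2 (0.387) were lower and Gadd45a (2.88) higher, and their part in the levels of the p53 targets was not tested. None of 15 cell cycle genes passed 2-fold either way, and the 4 with the largest ratios were Cdk1 (1.94, 1.59 to 2.39), Ccna2 (1.77), Birc5 (1.69) and Mcm5 (1.65).

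Within the epithelium, Cdkn2a ranged from near 0 in a population of AT2 cells to its highest level in Procr/Cldn4-led cells. The AT2 and AT1 classes of the CD45-negative library were clustered again with the 9 genes and all listed pathway genes left out, giving 8 sub-clusters. The 239 cells of sub-cluster 4, led by Cbr2 and Lyz1 and with Sftpc at 247578 CPM, had 6 UMI, or 3.13 CPM (1.15 to 6.82), at a median depth of 7456 UMI. The largest sub-cluster, number 0 with 593 cells led by Ccl20, Cd177 and Meg3, had 60.1 CPM (54.5 to 66.0). The 219 AT1-like cells of sub-cluster 1, 218 of them deposited as AT2, had 121 CPM (109 to 135) and carried Ager at 4742 CPM. Sub-cluster 2, with 95 cells led by Gkn2 and including cycling genes, had 132 CPM (115 to 150). The 292 cells of sub-cluster 5, which holds most of the Procr/Cldn4-led class, had 146 CPM (136 to 157). Sub-clusters 3 (332 cells led by Cox6a2), 6 (20 erythroid-like cells) and 7 (172 endothelial-like cells) had 46.4 CPM (38.5 to 55.4), 45.2 CPM (22.6 to 80.8) and 49.4 CPM (39.5 to 61.0). The 6 UMI of sub-cluster 4 lay in 2.09% of its cells, against 31.2% in sub-cluster 0 and 62.0% in sub-cluster 5. The level of sub-cluster 4 was below that of the mesothelial-like class, whose interval it overlaps.

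The same contrast appeared in the CD45-positive library, clustered separately. Its Lyz1-led and Cbr2-led sub-cluster of 79 cells had 0 Cdkn2a UMI at a median depth of 4173, where 3 counts would be 8.40 CPM, while 283 cells led by Dlk1, Meg3 and Dmkn had 45.1 CPM (36.0 to 55.7). The Lyz1-led cells of the CD45-negative library thus had 0.0521 (0.0190 to 0.114) of the Meg3-led level. In the CD45-positive library their level was at least 5.37-fold lower against a floor of 3 counts over the group, with a bound of the ratio's interval at 4.27-fold. Of all genes with at least 50 UMI in these contrasts, 9.59% and 8.96% were at least 2-fold lower in Lyz1-led cells and 2.26% and 2.45% at least 2-fold higher. Against the same Meg3-led cells Cdkn1a went the other way, at 81.5 against 45.7 CPM (ratio 1.78, 1.46 to 2.16) and at 95.2 against 40.3 CPM (ratio 2.36, 1.53 to 3.58). The whole AT2 class held Cdkn1a at 111 and 108 CPM in the 2 libraries, so Lyz1-led cells were not above AT2 cells at large. The ratios of the remaining 7 genes lay within 2-fold in both libraries, with Trp53 at 11.5 and 14.8 CPM in the CD45-negative library. Several of their intervals reached past 2-fold, so a larger difference was not excluded. For Phlda3 in the CD45-positive library the interval was 0.103 to 4.40, from 2 UMI in Lyz1-led cells. The contrast of these sub-clusters was chosen after the data were seen, and whether they are tumour cells or normal AT2 cells is not given by the annotation.

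Cdkn1a and Phlda3 differed in where they were high in the epithelium. Cdkn1a was 490 CPM (458 to 524) and Phlda3 70.1 CPM (58.2 to 83.7) in sub-cluster 7, whose 172 cells were led by endothelial genes such as Cldn5 and Ramp2. There 10 endothelial markers summed to 5121 CPM, against 295 to 374 CPM in the other sub-clusters, and the part of endothelial transcripts in these levels was not tested. Among the others, Cdkn1a was highest in sub-clusters 5 (207 CPM, 195 to 219) and 1 (150 CPM, 136 to 164) and lowest in sub-clusters 6 (37.0 CPM), 3 (40.2 CPM) and 0 (45.7 CPM). Phlda3 was highest in the AT1-like sub-cluster 1, at 30.8 CPM (24.7 to 37.8), and at 3.45 CPM (6 UMI) in sub-cluster 2. Trp53 lay between 11.5 and 27.6 CPM in all but sub-cluster 6, an erythroid-like group of 20 cells with 1 UMI.

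**Figure D4:**
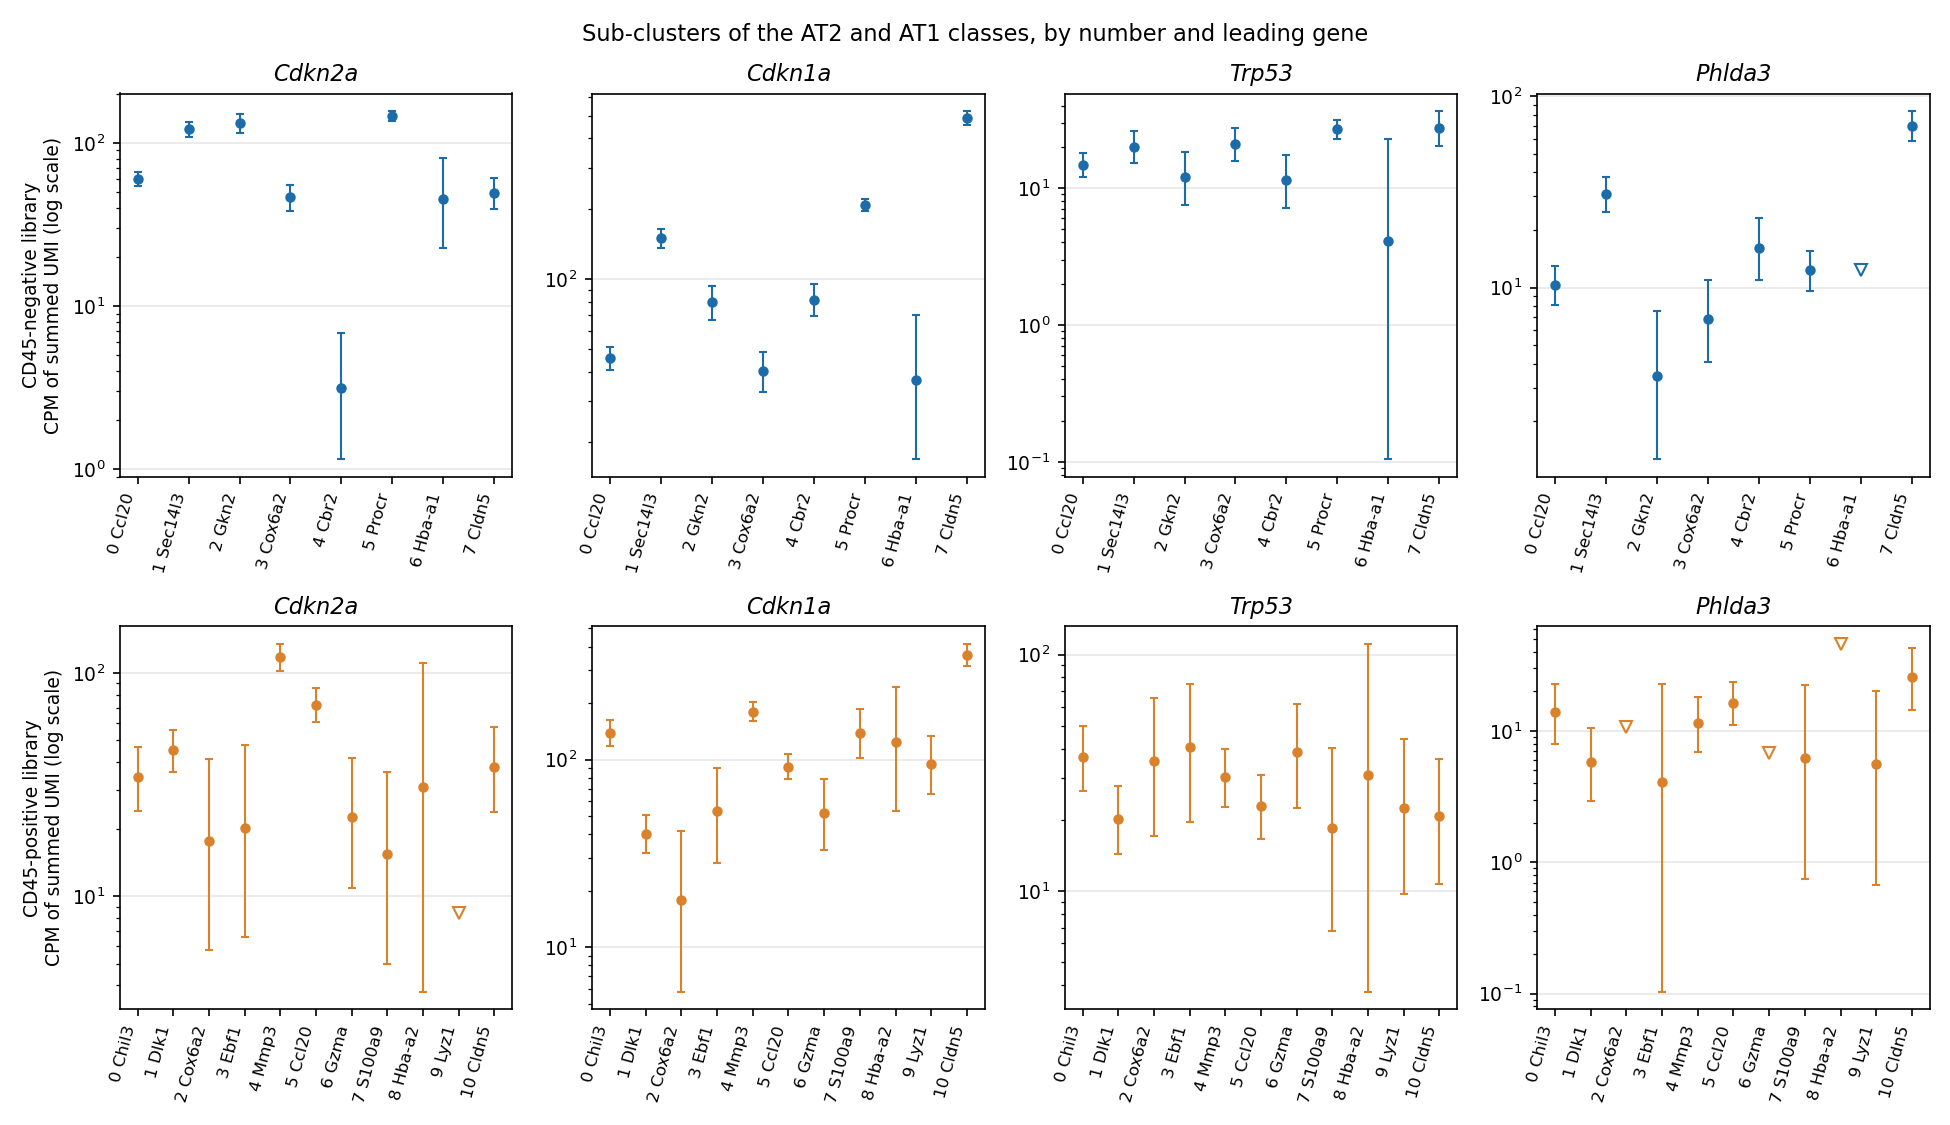
CPM of summed UMI (log scale) of Cdkn2a, Cdkn1a, Trp53 and Phlda3 in sub-clusters of the AT2 and AT1 classes, named by number and first leading gene, in the CD45-negative (top, blue) and CD45-positive (bottom, orange) library. Bars are 95% Poisson intervals and open triangles floors of 3 counts. Cdkn2a was 3.13 CPM in sub-cluster 4 and absent from the 79 cells of the Lyz1-led sub-cluster 9 of the CD45-positive library.

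Cycling AT2 cells, defined by a UMI of at least 3 of 10 cell cycle genes, numbered 76 against 1601 others. In them Trp53 was 8.67 CPM (4.33 to 15.5, 11 UMI) against 17.9 CPM, a ratio of 0.484 (0.239 to 0.877), and Phlda3 7.09 CPM (9 UMI) against 19.3 CPM, a ratio of 0.368 (0.167 to 0.708). Cdkn2a was 126 CPM (107 to 147) against 64.4 CPM, a ratio of 1.96 (1.65 to 2.31), just under 2-fold. So 2 of the 9 genes were at least 2-fold lower and 0 higher, where 4.87% and 8.73% of 10479 genes were. After thinning each cell to 1000 UMI the counts were 0 lower and 1 higher, the latter being Mdm2 (ratio 2.41, 0.622 to 6.73, from 4 and 35 UMI). The thinned ratio of Cdkn2a was 0.969 (0.258 to 2.57, from 4 UMI in cycling cells), and those of Trp53 and Phlda3 rest on 1 UMI each in cycling cells, so none of the 3 differences was seen at that depth. Without thinning, Cdkn1a (0.822, 0.676 to 0.991), Bax (1.29, 1.10 to 1.51) and Mdm2 (1.29, 0.884 to 1.83) stayed within 2-fold.

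Cells of the Endothelial class differed widely in Cdkn1a when clustered again, a step added after the data were seen. Left aside here are 7 cells led by Ccl21a and Mmrn1 with 10 UMI. The highest level was 2190 CPM (2123 to 2258) in 226 cells led by Fibin, Ednrb, Apln and Car4, the last of these a marker of alveolar capillaries. The lowest was 249 CPM (216 to 285) in 115 cells led by Stk4, Ackr4 and Xist. The other 8 sub-clusters lay between 729 and 1435 CPM, the lowest of them (47 cells) led by cycling genes. Among these 8 were 107 fibroblast-like cells, 202 led by Spp1 and Postn, 24 by Jchain and Ccl4 and 17 by Ppbp and Pf4. The values of the 8 are therefore not of endothelial cells alone. Phlda3 did not follow this order. It was highest, at 709 CPM (629 to 796), in 67 cells with Chst1 and Car4 among their leading genes, and in the Stk4-led cells, where Cdkn1a was lowest, it stood at 232 CPM (201 to 267). Trp53 ranged from 57.6 to 114 CPM.

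Of the 115 Stk4-led cells, 97 had Xist UMI without Y-linked ones (Ddx3y, Eif2s3y, Uty or Kdm5d) and 0 the reverse. Xist was not left out of the clustering and is among their leading genes, so this count is not a separate observation. Over the whole Endothelial class of the CD45-negative library, Cdkn1a stood at 1680 CPM (1638 to 1722) in the 433 cells with Y-linked UMI only and at 815 CPM (786 to 844) in the 463 with Xist only, a ratio of 2.06 (1.97 to 2.15). The CD45-positive library gave 1558 against 751 CPM in 387 and 892 cells, a ratio of 2.08 (1.97 to 2.19). Of all genes with at least 50 UMI in this split, 0.67% and 0.365% in the 2 libraries were at least 2-fold higher in cells with Y-linked UMI, and 1.39% and 1.01% at least 2-fold lower. In the 6 sub-clusters with at least 20 cells of each kind the ratio lay between 1.20 (1.09 to 1.32) and 1.95 (1.60 to 2.39). Cdkn2a was lower in the cells with Y-linked UMI of the CD45-negative library (8.26 against 20.8 CPM, ratio 0.396, 0.251 to 0.612) but not in the CD45-positive one (ratio 1.14, 0.567 to 2.21), and Trp53 did not differ beyond its interval in either (1.01, 0.847 to 1.21, and 0.916, 0.710 to 1.17). Phlda3 had a ratio of 0.969 (0.881 to 1.07) in the former and 1.22 (1.05 to 1.42) in the latter. In AT2 cells the Cdkn1a ratio was 1.40 (1.25 to 1.56) in the CD45-negative and 0.875 (0.717 to 1.06) in the CD45-positive library, and in Immune cells 1.59 (1.13 to 2.23) and 1.37 (1.26 to 1.49). This split was made after the data were seen, animals are not labelled, and sex, animal and tumour cannot be told apart.

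Among immune cells of the CD45-positive library, clustered into 23 groups without the 9 genes, Trp53 and Cdkn2a were opposite in the alveolar macrophage-like clusters, whose cells take up surfactant and particles in the airspaces. The 1009 cells of that cluster had Cdkn2a at 58.5 CPM (51.4 to 66.3) and Trp53 at 21.7 CPM (17.5 to 26.7), and the 111 cycling cells of a further one had 34.1 CPM (21.1 to 52.1) and 11.4 CPM (4.57 to 23.4). The T cell-like and B cell-like clusters showed the reverse. The 2 T cell-like clusters had Cdkn2a at 3.72 and 6.42 CPM and Trp53 at 71.9 and 77.5 CPM, and B cell-like clusters had 1.28 and 2.68 CPM of Cdkn2a with 65.5 and 59.8 CPM of Trp53. C1q macrophage-like cells, another macrophage population, had Cdkn2a at 2.37 CPM (0.870 to 5.16) and Trp53 at 55.3 CPM (46.5 to 65.3). The whole Immune class held Cdkn2a at 74.9 CPM (59.1 to 93.6) in the CD45-negative library, and there the 8 alveolar macrophage markers summed to 24597 CPM. In the CD45-positive library it held 15.8 CPM (14.3 to 17.3), with 2681 CPM of those markers.

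Each named myeloid cluster held more Cdkn1a than each named lymphoid one. It stood at 565 CPM (483 to 657) in 70 dendritic cell-like cells led by Ccl22, Fscn1 and Ccl17, 345 CPM (292 to 405) in monocyte-like, 324 CPM (302 to 347) in C1q macrophage-like and 283 CPM (259 to 309) in neutrophil-like cells, and at 170 CPM (157 to 183) and 307 CPM (265 to 354) in the larger and the cycling alveolar macrophage-like cluster. B cell-like, plasma cell-like and T cell-like clusters had between 36.8 and 73.8 CPM. A cluster of 69 endothelial-like barcodes within the Immune class had 640 CPM, and that value is not an immune level. Mdm2 was highest in an unnamed cluster of 99 cells that mixed neutrophil and plasma cell genes, at 103 CPM (74.3 to 138), and stood at 49.2 CPM (39.5 to 60.5) in neutrophil-like and 46.0 CPM (39.3 to 53.6) in plasma cell-like cells.

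**Figure D5:**
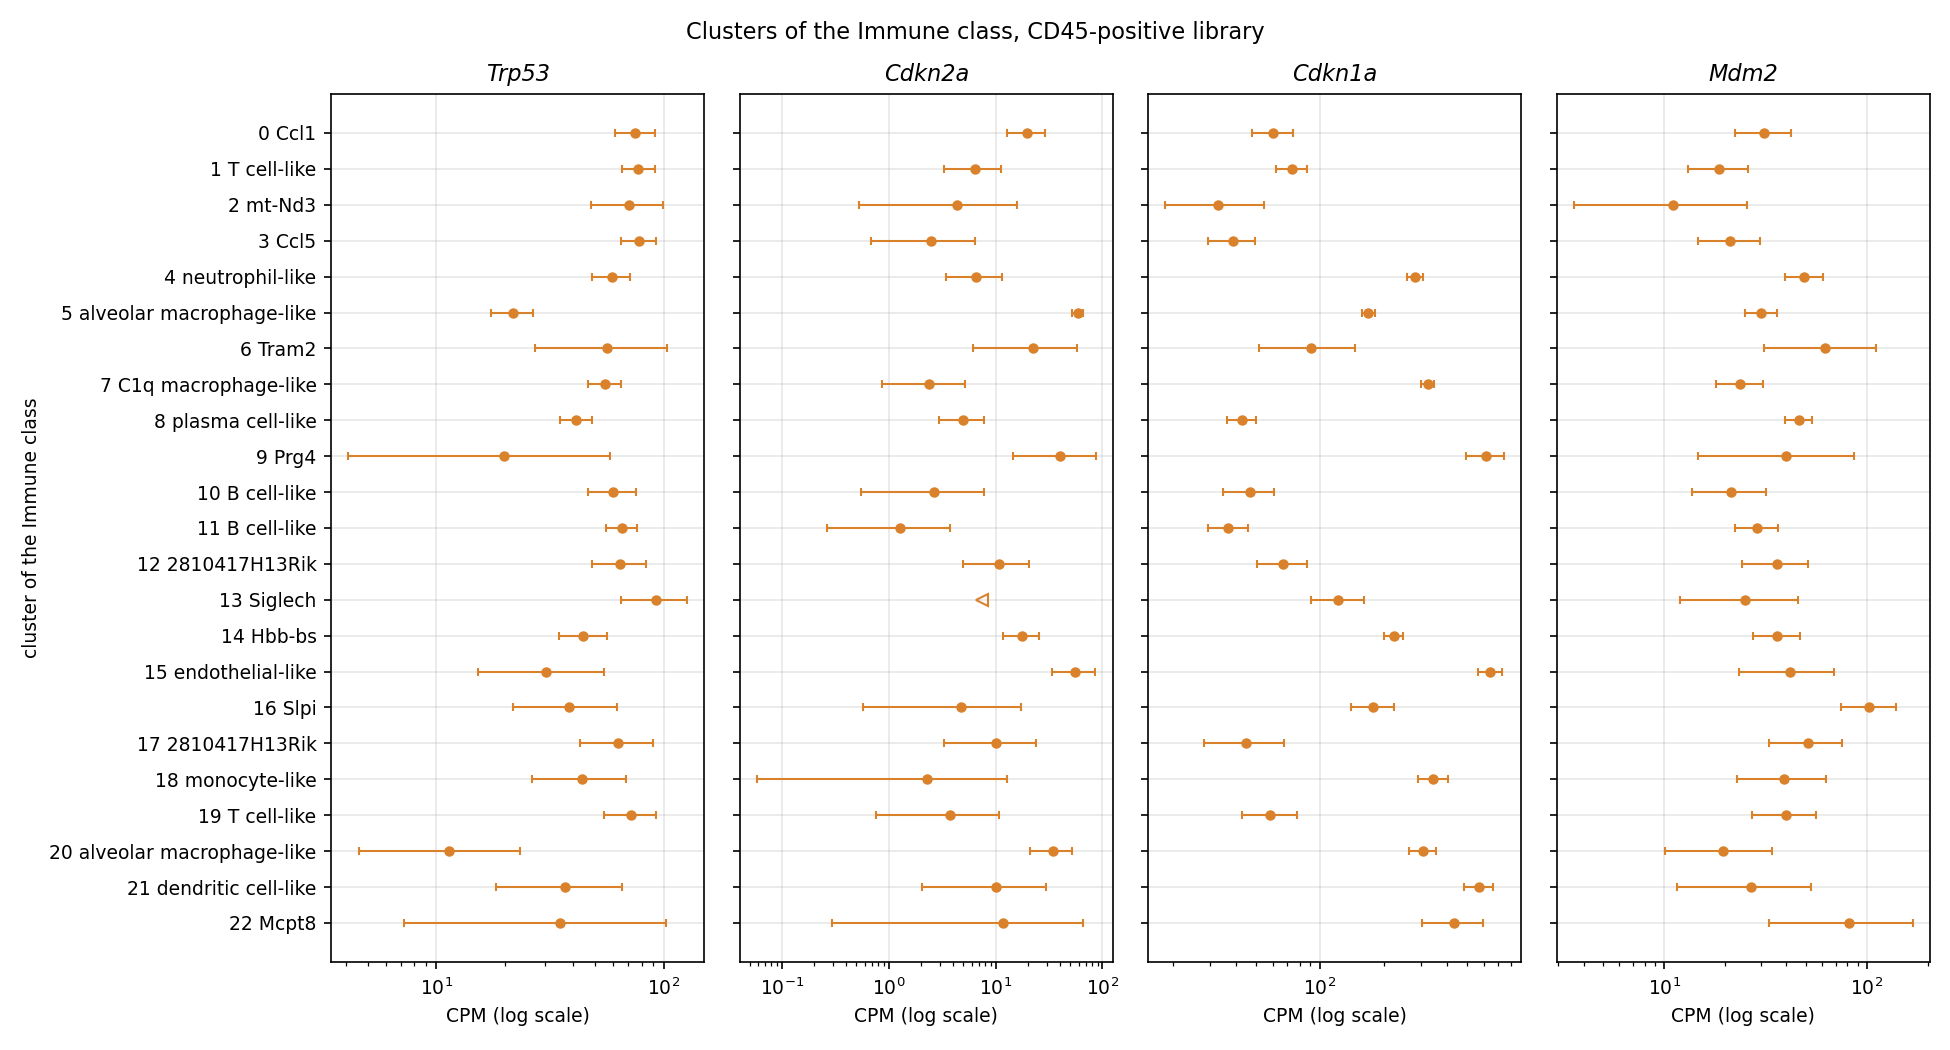
CPM of summed UMI (log scale) of Trp53, Cdkn2a, Cdkn1a and Mdm2 in the 23 clusters of Immune cells from the CD45-positive library, named by number and marker-based name or first leading gene. Bars are 95% Poisson intervals, and the open triangle is a floor of 3 counts. The alveolar macrophage-like cluster 5 combines 58.5 CPM of Cdkn2a with 21.7 CPM of Trp53.

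For each of the 9 genes, up to 3 genes nearest in pattern are given, those with the highest Pearson correlation of log2(CPM + 10) over the 14 combinations of class and library, among 9960 genes with at least 500 UMI. They were Crtc3, Tln1 and Appl1 for Trp53 (r from 0.95 to 0.97), Klc1, Pcnx and Slc30a1 for Cdkn1a (0.96 to 0.97) and Afp, Cxcl3 and Tnip3 for Cdkn2a (0.92 to 0.94). For Mdm2 they were Chuk, Mnat1 and Cep57 (0.97 to 0.98), for Bax Ddx18 and Snrpa1 (0.99 and 0.98) and for Phlda3 Fmo5, Sema6a and Crim1 (0.94 to 0.95). Ccng1 was nearest to Arsb, Crip1 and Mmd (0.95 to 0.96), Sesn2 to Hid1, Lpin2 and Usp39 (0.91 to 0.95) and Zmat3 to Nrde2, Usp53 and Pde4dip (0.95 to 0.96). The 14 points share 2 libraries and their depth.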

How the data were processed

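The authors deposited a table of UMI counts per gene and cell for both libraries together, with a class for every cell. Cell Ranger 1.1.0 aligned the reads to mm10 and merged those with the same UMI, per the series' design text and the submitters' processing notes, and how the deposited cells were selected is not stated there. All 15389 cells were used as deposited, doublets were not removed, and the 57 barcodes found in both libraries were kept.

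Counts were summed over cells of a class and library and divided by the class total (CPM). A gene was called higher or lower at a ratio of at least 2 or at most 0.5, and lists and all-gene counts used genes with at least 50 UMI in the pair. Shares were also computed after drawing 1000 UMI per cell, which dropped 0 cells. Classes were clustered in scanpy 1.11.5 with the Leiden method of igraph 0.11.9 (2000 variable genes, 30 components, 15 neighbours, resolution 0.5, and 1.0 for immune cells), with the 9 genes and the listed genes left out. A cluster was named from fixed markers only where at least 3 were among its top 50 genes and 1 among its top 10. It stayed unnamed where a second marker list had more than 0.5 times as many among the top 50. A Siglech-led cluster with erythroid markers was also left unnamed, since its leading genes went against that name. Sub-clustering of the CD45-positive epithelium and the Endothelial class, the contrast of Lyz1-led cells and the Xist split were added after the data were seen.

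Genes named from each pathway list were the 4 with the largest ratios in either direction in AT2/Endothelial, together with further genes past 2-fold, which were chosen after their values were seen. A gene that these rules named is not reported here. The members and lists were chosen with earlier results of these data known. The ratio and interval functions were tested on simulated data. With 1 library per group no p-value was computed. Intervals came from scipy 1.17.1, tables from pandas 2.3.3 and numpy 2.4.6 and plots from matplotlib 3.10.9, under Python 3.11.15. Promoters came from RefSeq (GRCm38.p6), whose table gave no window for Zmat3.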

Additional observations from a re-analysis of the deposited data

Results flagged for a closer look

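The direction differed between the libraries for 2 of the compared ratios, and neither difference was tested. Zmat3 in AT2/Endothelial was 0.776 (0.608 to 0.992) in the CD45-negative and 1.09 (0.810 to 1.47) in the CD45-positive library. Bax in the Procr/Cldn4-led class (deposited as AT1) over the mesothelial-like class (deposited as Fibroblast) was 1.11 (1.004 to 1.22) in the CD45-negative and 0.762 (0.627 to 0.926) in the CD45-positive library.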

How the results depend on the processing

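No paired analysis was possible because each fraction is 1 library and its replicate number was given in accession order only. Across the alternatives, 216 ratios of the 9 genes moved by less than their counting interval, 77 moved further and 0 changed the direction of a called gene. In AT2/Endothelial (1 higher, 5 lower), 2 genes were higher and 3 lower with totals that leave out the 50 most abundant genes and, likewise, after division by the median ratio, and 2 were higher at a fold of 1.5. Other targets there were 7 higher after division by the median. In AT2/Fibroblast, other targets were 9 lower without the 50 genes, and 3 higher and 9 lower with at least 200 UMI. All genes past the fold there numbered 7541 with no minimum, 2404 with at least 200 UMI and 6359 at a fold of 1.5, against 3869. In AT1/Endothelial, 2 genes were higher after thinning, after division by the median, without sub-clusters led by another cell type (chosen after the data were seen) and at a fold of 1.5, and all genes fell to 2981 with at least 200 UMI, against 4605. In AT1/Fibroblast, 1 gene was higher with at least 200 UMI, other targets were 5 higher and 6 lower, and all genes numbered 5978 with no minimum, 1802 with at least 200 UMI and 5407 at a fold of 1.5, against 3467. Subtracting the Immune level left most of the 9 genes without a value, Cdkn2a among them in every pair, since a class level lay below it. Sesn2 kept a value and was the gene called higher in AT1/Endothelial and both Fibroblast pairs. Higher and lower were 0 and 0 in AT2/Endothelial, 1 and 0 in AT2/Fibroblast, 1 lower beside Sesn2 in AT1/Endothelial, and 1 and 0 in AT1/Fibroblast. Other targets were then 7 lower, 7 lower, 0 higher and 4 lower, and 4 higher and 4 lower in these pairs. In cycling AT2 cells, thinning gave 1 higher and 0 lower in place of 0 and 2. Cdkn2a in the immune cluster with the highest Chil3 was 81.4 CPM at resolution 2 in place of 58.5. The cause of these changes was not tested. Depth limits the values of Sesn2, of the cycling cells and of Cdkn2a in mesothelial-like cells, which rest on few UMI.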
